A study of Danio rerio with 22 samples.

Results

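The 200 genes described here were on at a steady level in every germ cell library prepared by Smart-seq and were close to silent in the body trunk. They were chosen from the 32057 genes of the series by their levels on the log2(TPM + 1) scale, where TPM is a relative number of transcripts that takes the length of a gene and the depth of a library into account. A gene was kept where its standard deviation (SD) over the 14 Smart-seq germ cell libraries was under 0.4 and its level was under 1 TPM in both trunk libraries. Germ cell genes with 13 identifiers, among them DDX4 and PIWIL1, were left out first, and 8 of these would otherwise have ranked among the 200. Of the remaining genes, 12446 met both limits, although 3461 of them were at 0 TPM in all 14 libraries, and the 200 with the highest mean were taken. Membership therefore rests on the Smart-seq and trunk levels, which are given as a description without a test, and only the Quartz-seq libraries were independent of the choice.

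The germ cells came from W-hybrid larvae, the presumptive females, which are the offspring of WW Nadia mothers and Tg(ziwi:GFP) fish in the TL background. They also came from Z-hybrid larvae, the presumptive males, which are the offspring of ZZ Nadia fathers and Tg(ziwi:GFP) mothers. The strain of the mother thus differed between the hybrids. The ziwi promoter of the transgene drives GFP in germ cells, and GFP-positive cells were sorted from the pooled gonads of many larvae, so that each library is a batch of larvae and no single animal. Sex was presumed from the cross. By Quartz-seq there were 2 W-hybrid libraries and 1 Z-hybrid library at 14 dpf (days post fertilization) and again at 12 dpf, and by Smart-seq 4 of each hybrid at 12 dpf and 3 of each at 10 dpf, besides 2 libraries of trunk cells labelled 10 dpf. Nothing shows whether batches of a group came from separate crosses, so p-values measure the spread between these batches, which may be technical.

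Germ cells keep their RNA under control in granules called nuage, or germ plasm in the egg, where piRNAs, small RNAs bound to Piwi proteins, silence transposons. The same cells hold the machinery of meiosis and, in females, store RNAs that the early embryo will use. In zebrafish larvae, the gonad passes through an early stage at which the germ cells of both sexes can still follow either path.

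The Quartz-seq libraries held 13828829 to 37224647 counts, the 12-dpf Z-hybrid one the fewest, and the Smart-seq germ cell libraries 13556577 to 18321692. At least 10 counts were reached by 18966 to 20378 genes in the W-hybrid Quartz-seq libraries, against 16617 and 16597 genes in the Z-hybrid ones at 14 and 12 dpf. The germ cell gene DAZL had at least 1255 TPM in each Quartz-seq and 738 TPM in each Smart-seq germ cell library, against at most 0.21 TPM in trunk. Hand-compiled markers of epidermis summed to 89.9 to 117 TPM by Quartz-seq and 30.7 to 126 TPM by Smart-seq in germ cells, against 34079 and 94569 TPM in the trunk libraries. Markers of blood summed to at most 25.8 TPM by Quartz-seq and 77.1 TPM by Smart-seq, against at least 3471 TPM in the trunk. The 18 muscle markers that were found summed to 1137 and 5342 TPM in the 12-dpf W-hybrid Quartz-seq libraries, and 5 of them were called higher there than in the Z-hybrid library, which summed to 1125 TPM. The same markers summed to 286 TPM in the lower and 7515 TPM in the higher trunk library, so these differed from each other. None of the 200 genes stands on the lists for muscle, epidermis, blood, or pancreas and gut. This follows largely from the rule and does not speak to other cells in the samples. The trunk limit was met by 4 of 18 muscle, 0 of 11 epidermis, 2 of 6 blood and 15 of 20 pancreas and gut genes. Of these, 1 muscle gene and 1 pancreas and gut gene also reached the lowest mean of the 200. DMRT1 is the 1 gene shared with the list for somatic cells of the gonad. The other 10 genes found from that list summed to 40.3 and 43.1 TPM in W-hybrid cells against 45.6 TPM in Z-hybrid cells at 14 dpf, and to 44.2 and 28.7 TPM against 26.9 TPM at 12 dpf. The part of such cells in the results below was not tested.

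The mean level of the 200 genes over the 14 Smart-seq libraries ran from 4.08 to 10.3 on the log2 scale, with a median of 5.08, and their SD ran from 0.108 to 0.3999, with a median of 0.294. As median TPM, the levels ran from 15.03 to 1237, with a middle value of 32.9. Only 37 genes reached 100 TPM and 4 reached 500 TPM. In the trunk, 46 genes were at 0 TPM in both libraries, and 111 had at most 3 counts in each. Together the 200 genes took 1.57% to 1.86% of the counts of a Smart-seq germ cell library, against 0.00479% and 0.00405% in the trunk. The last gene taken, pcbp3, had a mean of 4.08377 and the first one below it, misp3, 4.08219. At the limit of the SD, MAJIN was inside with 0.399918 and rad9b outside with 0.400467. At the limit of the trunk level, TRIM55 was inside with 0.98 and 0 TPM and adh5l outside with 0.74 and 1.02 TPM. A symbol was found for 193 of the 200 genes, of which 44 are clone-based names, and 7 had none.

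**Figure D1:**
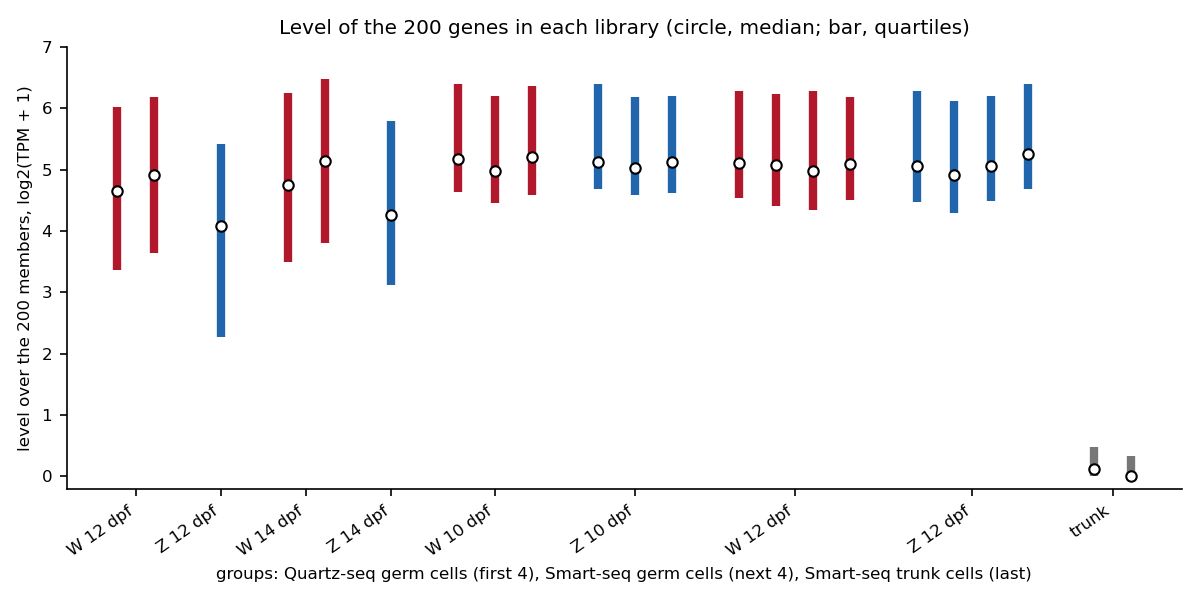
Level of the 200 genes in each of the 22 libraries, in log2(TPM + 1) on the vertical axis, with W-hybrid libraries in red, Z-hybrid libraries in blue and trunk libraries in grey. Circles are medians and bars the quartiles over the genes. The medians of the Z-hybrid Quartz-seq libraries, 4.09 at 12 dpf and 4.27 at 14 dpf, lie below those of the W-hybrid ones, which run from 4.65 to 5.15.

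The steadiest of the 200 genes was MEI4 (ENSDARG00000043912), which is needed to make the DNA breaks that start meiotic recombination in mouse. MEI4 had 103, 102 and 109 TPM in W-hybrid and 107, 109 and 103 TPM in Z-hybrid cells at 10 dpf by Smart-seq, and 104, 86.8, 107 and 104 TPM in W-hybrid against 116, 92.8, 103 and 93.1 TPM in Z-hybrid cells at 12 dpf. Its SD was 0.108, and it was at 0 TPM in both trunk libraries. The next were org, an oogenesis-related gene of zebrafish (SD 0.147), ZAR1L, related to an egg protein that binds maternal RNA (0.152), map1lc3c, an autophagy gene (0.155), and ENSDARG00000029848 (0.158). This order comes from the SD that the rule also used, and the values from 0.147 to 0.158 lie close together, so it is a description only.

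In Smart-seq, where steadiness was required, the difference between W- and Z-hybrid cells at 12 dpf ran from −0.63 to 0.73 on the log2(TPM + 1) scale with a median of 0.01, and 3 genes differed by more than 1.5-fold. The largest was npm2b, a nucleoplasmin of the egg (0.73). At 10 dpf, the difference ran from −0.72 to 0.74 with a median of −0.01, and 11 genes passed 1.5-fold, ldhbb, a lactate dehydrogenase, being the lowest (−0.72). Between 12 and 10 dpf, 1 gene passed 1.5-fold in the W-hybrid and 12 in the Z-hybrid. These ranges follow from the limit on the SD.

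ENSDARG00000105573 (941 TPM at the lowest, 1237 at the median and 1776 at the highest of the 14 Smart-seq libraries) and ENSDARG00000102946 (461, 854 and 1132 TPM) had the highest levels and have only clone-based names. The next was org (533, 687 and 758 TPM). It was followed by ddx19a, an RNA helicase of the family that helps mRNA leave the nucleus (290, 606 and 706 TPM), exd1, a factor for piRNA production in mouse (390, 475 and 641 TPM), and pld6, the mitochondrial nuclease that cuts piRNA precursors in mouse (257, 354 and 487 TPM). The list goes on with sumo2a, a small ubiquitin-like modifier, EIF4E1B, a cap-binding protein of oocytes, lim2.2, and rbm44, an RNA-binding protein, at medians from 288 to 317 TPM.

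By Quartz-seq, 167 of the 200 genes were at 1 TPM or more in all 6 libraries. The other 16.5% fell below 1 TPM in at least 1 library, against 9.70% of all genes of at least the same mean level. The share was 8.47% of the genes that were as steady but also seen in trunk. It was 24.3% of germline-restricted genes of that level whose Smart-seq SD had been too large. Germline-restricted here means only under 1 TPM in both trunk libraries. That limit was also met by all 11 genes found for somatic cells of the gonad and by 15 of 20 for pancreas and gut. Under 1 TPM were 3 and 2 genes in the W-hybrid libraries of 14 dpf against 9 genes in the Z-hybrid one, and 4 and 2 genes in those of 12 dpf against 24 genes. The 7 genes under 1 TPM in 2 or more of the libraries were FAIM, SERP2, lenep, tac3b and POLR2E besides ENSDARG00000093088 and ENSDARG00000095078. Their lowest and highest Quartz-seq values lay between 0 and 10.2 TPM. The SD over the 4 W-hybrid Quartz-seq libraries stayed under 0.4 for 125 of the 200 genes (62.5%), against 3548 of 5041 genes (70.4%) of at least the same mean level that were as steady in Smart-seq but not restricted to germ cells. It did so for 58 of 148 germline-restricted genes (39.2%) of that level that had been variable. Over all 6 Quartz-seq libraries, 41 of the 200 genes (20.5%) stayed under 0.4, against 27.2% of the steady genes also seen in trunk and 14.9% of the variable ones.

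Levels by Quartz-seq and Smart-seq differed with gene length. The 12-dpf W-hybrid was the only group measured at the same age in replicate by both methods. There, the difference of Quartz-seq minus Smart-seq had a median of −0.54 on the log2(TPM + 1) scale and ran from −6.31 to 2.91. The 200 genes were ranked by their Smart-seq mean, so the Smart-seq side was used in the choice. The median was −0.11 over all genes of at least the same mean level. It was −0.25 over the steady genes also seen in trunk and −0.71 over the variable germline-restricted ones. Of the 45 genes shorter than 1000 bases, 1 was higher by Quartz-seq (median −2.27). Of the 109 genes of 1000 to 2000 bases, 41 were higher (median −0.36), as were 32 of the 39 genes of 2000 to 3000 bases (median 1.07) and 5 of the 7 longer ones (median 1.33). Across the 200 genes, which share the libraries and are not independent, Spearman's rho between length and difference was 0.709. It was 0.734 across the steady genes also seen in trunk and 0.690 across the variable germline-restricted ones. ENSDARG00000105573, with a length of 527 bases, had 15.1 and 14.6 TPM in the 12-dpf W-hybrid by Quartz-seq. In contrast, rnf17 had 1029 and 895 TPM there by Quartz-seq, against 126 TPM at the median of Smart-seq. Below, Quartz-seq values are compared only with each other.

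**Figure D2:**
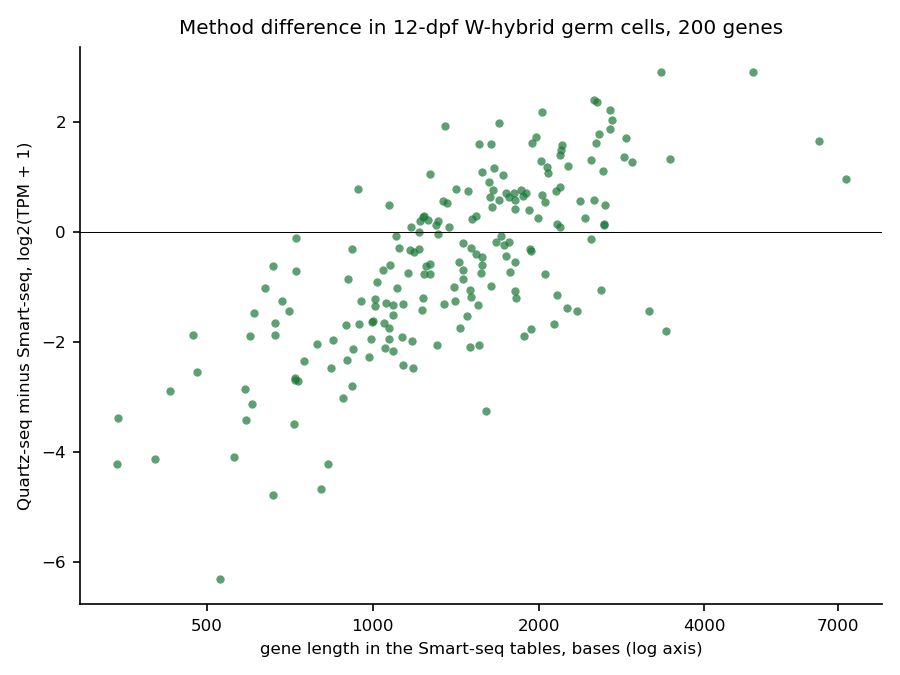
Difference between the methods in 12-dpf W-hybrid germ cells, as the mean log2(TPM + 1) of 2 Quartz-seq libraries minus that of 4 Smart-seq libraries, against gene length in bases on a log axis. Each point is 1 of the 200 genes. Points of short genes lie mostly below 0 and those of genes over 2000 bases mostly above it.

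The 6 Quartz-seq libraries were fitted together by edgeR's quasi-likelihood method, and p-values were adjusted after Benjamini and Hochberg over the 23154 genes tested, which included all 200. To be called, a gene needed an adjusted p below 0.05, a difference of 1.5-fold or more, and over 5 TPM on average in whichever group was higher. Fold changes come from counts scaled by the trimmed mean of M values (TMM), and can therefore differ from the ratio of the TPM values printed beside them. The spread came from the W-hybrid libraries, since each Z-hybrid group is 1 library, and the fit left 2 residual degrees of freedom. Each difference between the hybrids thus cannot be told apart from what is particular to a single Z-hybrid library. Nor can it be told apart from the strain of the mother, which also differed. In bulk samples, fewer cells of a type and less RNA per cell cannot be told apart either.

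At 14 dpf, 22 of the 200 genes (11%) were called higher in W- than in Z-hybrid cells and 5 (2.5%) lower, where 4.23% of all genes tested were called higher and 4.95% lower. Of the steady genes also seen in trunk, 6.01% were called higher and 6.68% lower. The median log2 fold change of the 200 genes was 0.38, against 0.31 over all genes tested, 0.15 over the steady genes also seen in trunk and 1.07 over the variable germline-restricted genes, of which 29.4% were called higher. With library size in place of TMM scaling, the medians became 0.71 for the 200 genes and 0.64 for all genes, and 30 of the 200 genes rose and 0 fell. Without W-hybrid replicate 1 of 14 dpf, the median of the 200 genes was 0.38, against 0.24 over all genes. Without replicate 2 it was 0.23, against 0.07. In a fit of all 20 germ cell libraries, 50 were higher and 16 lower. That fit also takes its spread from the Smart-seq libraries, over which a small SD was required, so its larger counts are no independent result. At 12 dpf, 74 genes (37%) were called higher in W-hybrid cells and 4 (2%) lower, against 13.3% and 8.14% of all genes tested. The steady genes also seen in trunk had a similar share, with 31.2% higher and 4.41% lower, and a median log2 fold change of 0.77, against 0.96 for the 200 genes. Without W-hybrid replicate 2 of 12 dpf, 62 were higher and 2 lower. Of the 74 genes, 15 had 3 counts or fewer in the 12-dpf Z-hybrid library. By Smart-seq at that age, where steadiness was required, the hybrid difference of the 200 genes stayed between −0.63 and 0.73 in log2(TPM + 1). Together the 200 genes took 1.52% and 1.73% of the counts in the W-hybrid against 1.07% in the Z-hybrid at 14 dpf, and 1.59% and 1.60% against 1.01% at 12 dpf.

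By the test of the interaction, the difference between the hybrids was not the same in the 14- and 12-dpf libraries for 42 of the 200 genes. Each age has 1 Z-hybrid library, so age cannot be told apart from what is particular to a library. The W- over Z-hybrid fold change was greater at 14 than at 12 dpf in 6 (3%), against 4.13% of all genes tested, and smaller in 36 (18%), against 8.09%. The steady genes also seen in trunk had 1.19% and 15%. Both comparisons found 12 of the genes higher, and DMRT1 was the 1 gene lower at both ages. STMN4 and TMEM255A were called lower at 14 dpf and higher at 12 dpf. For 14 against 12 dpf within the W-hybrid, none of the 200 genes was called by edgeR in either direction, as with DESeq2, and 8 were below 0.05 before adjustment. Of all genes tested, 0.013% were called higher at 14 dpf and 0% lower, and the median log2 fold change of the 200 genes was 0.03. In that comparison, 2 libraries stood against 2, so the lack of calls does not show that levels were equal.

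**Figure D3:**
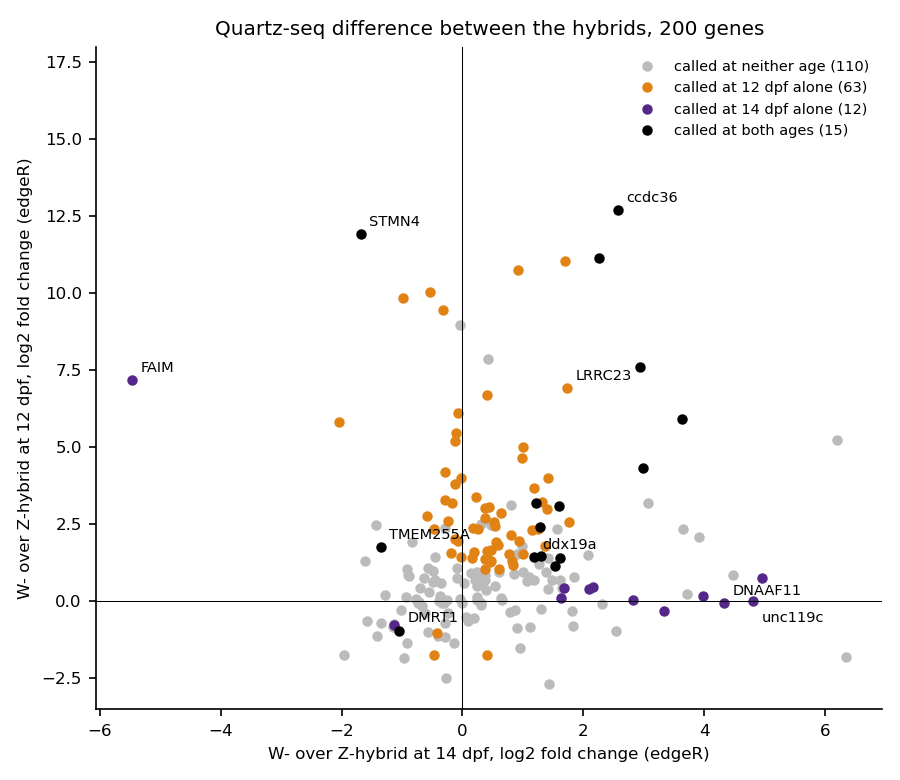
Log2 fold change of W- over Z-hybrid cells by Quartz-seq at 14 dpf (horizontal axis) and at 12 dpf (vertical axis) for the 200 genes, from edgeR. Colours mark the 15 genes called at both ages (black), 12 at 14 dpf alone (purple), 63 at 12 dpf alone (orange) and 110 at neither (grey). Most orange points lie above 0 on the vertical axis, and values above about 7 belong to genes with 3 counts or fewer in the 12-dpf Z-hybrid library, where the fitted size depends on the prior count.

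Of the 200 genes, 11% were called higher at 14 dpf and 37% at 12 dpf, against 4.23% and 13.3% of all genes tested. The steady genes also seen in trunk, which had at least the same mean level, came closer, with 6.01% and 31.2%. The counts by role below stand beside these shares. By role, 70 of the 200 genes were sorted into 8 groups after their names and values were seen, so the groups serve to order the description only. The first holds 8 genes of the piRNA pathway and of nuage, from a list of 25 genes found. None of the 8 was called at 14 dpf, and 4 were called higher in W-hybrid cells at 12 dpf, namely pld6, ASZ1, tdrd15 and ddx43. Over the whole list, 1 of 25 was called higher at 14 dpf and 8 at 12 dpf, with 0 lower. The nuclease gene pld6 had 258 and 401 TPM in W-hybrid against 159 TPM in Z-hybrid cells at 14 dpf, and 310 and 343 TPM against 82.2 TPM at 12 dpf (log2 fold change 2.16 ± 0.37 SE, adjusted p = 0.00188 by edgeR). Both W-hybrid values stood well above the Z-hybrid value at 12 dpf. ASZ1, a nuage protein on mitochondria in mouse, had 282 and 402 TPM in W-hybrid against 184 TPM in Z-hybrid cells at 12 dpf (log2 fold change 1.06 ± 0.35, adjusted p = 0.0459 by edgeR). This call was lost without W-hybrid replicate 2 of 12 dpf (adjusted p = 0.242 by edgeR). For tdrd15, which encodes a Tudor domain protein, the values at 12 dpf were 184 and 189 TPM in W-hybrid against 80.2 TPM in Z-hybrid cells (log2 fold change 1.39 ± 0.32, adjusted p = 0.00852 by edgeR). The helicase gene ddx43 had 16.7 and 11.6 TPM in W-hybrid against 2.07 TPM in Z-hybrid cells at 12 dpf (adjusted p = 0.00598 by edgeR), and 7.28 and 13.9 against 7.56 TPM at 14 dpf, where the groups overlapped.

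The other 4 of these genes passed no test. FKBP6, a chaperone partner of the pathway in mouse, had 46.6 and 49.2 TPM in W-hybrid against 73.8 TPM in Z-hybrid cells at 14 dpf, and 67.7 and 68.2 against 68.6 TPM at 12 dpf. GPAT2, an acyltransferase that takes part in piRNA production in mouse, had 395 and 359 TPM in W-hybrid against 376 TPM in Z-hybrid cells at 14 dpf. For exd1, the values at 14 dpf were 349 and 291 TPM against 127 TPM, with a log2 fold change of 1.101 ± 0.37 and an adjusted p of 0.0718 by edgeR. The Tudor gene rnf17 had 834 and 727 TPM in W-hybrid against 459 TPM in Z-hybrid cells at 14 dpf (adjusted p = 0.283 by edgeR). At 14 dpf, both W-hybrid values of exd1 lay above the Z-hybrid value and both of FKBP6 lay below it, without passing the test.

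Of 11 genes for RNA binding, export and translation, 1 was called higher at 14 dpf, and 5 higher and 1 lower at 12 dpf. The helicase gene ddx19a (ENSDARG00000044325) had 1362 and 1605 TPM in W-hybrid against 549 TPM in Z-hybrid cells at 14 dpf (log2 fold change 1.18 ± 0.32, adjusted p = 0.0328 by edgeR), and 1426 and 1523 TPM against 609 TPM at 12 dpf (1.42 ± 0.32, adjusted p = 0.00722 by edgeR). All 4 W-hybrid values were above both Z-hybrid ones. Its call at 14 dpf was lost without W-hybrid replicate 1 or 2 of 12 dpf (adjusted p = 0.0617 and 0.0799 by edgeR) and without replicate 2 of 14 dpf (0.0561), while its log2 fold change stayed between 1.05 and 1.18 without any of these. EIF4E1B had 68.3 and 101 TPM in W-hybrid against 24.0 TPM in Z-hybrid cells at 12 dpf (adjusted p = 0.0100 by edgeR). The poly(C)-binding protein gene pcbp3 went the other way, with 65.4 and 51.3 TPM in W-hybrid against 119 TPM in Z-hybrid cells at 12 dpf (log2 fold change −1.73 ± 0.40, adjusted p = 0.00800 by edgeR).

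In contrast, ELAVL2, which encodes an RNA-binding protein that acts on mRNA stability, passed no test, with 1258 and 970 TPM in W-hybrid against 1389 TPM in Z-hybrid cells at 14 dpf, and 1159 and 909 TPM against 936 TPM at 12 dpf. ADAD1, known for a nuclear protein of mouse testis, had 589 and 600 TPM in W-hybrid against 483 TPM in Z-hybrid cells at 14 dpf (log2 fold change −0.01 ± 0.31, and 0.32 with library size in place of TMM). RBM46, which mouse germ cells need to enter meiosis properly, had 254 and 421 TPM in W-hybrid against 187 TPM in Z-hybrid cells at 14 dpf (adjusted p = 0.274 by edgeR). The values for rbm44 were 223 and 307 TPM in W-hybrid against 118 TPM in Z-hybrid cells at 12 dpf, and its call was lost without W-hybrid replicate 2 of that age (adjusted p = 0.113 by edgeR). The mRNA export receptor gene nxf1a had 471 and 455 TPM against 293 TPM at 12 dpf, and its log2 fold change of 1.03 was 1.02 without W-hybrid replicate 1 (adjusted p = 0.0957 by edgeR) and 1.04 without replicate 2 (0.113). The list of germ plasm and germ line RNA regulators, of which 4 are among the 200, had 2 of 29 genes called higher and 6 lower at 14 dpf, and 3 higher and 8 lower at 12 dpf.

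Of 8 genes for meiosis, 2 were called higher in W-hybrid cells at 14 dpf and 3 at 12 dpf, and none lower. The list fixed for meiosis, which holds 7 of them, had 22 of 46 genes called higher at 14 dpf and 23 at 12 dpf. The gene terb1 (ENSDARG00000058587), which in mouse ties telomeres to the nuclear envelope, had 247 and 258 TPM in W-hybrid against 87.5 TPM in Z-hybrid cells at 14 dpf (log2 fold change 1.296 ± 0.32, adjusted p = 0.0234 by edgeR), and 198 and 181 TPM against 76.1 TPM at 12 dpf (1.48 ± 0.32, adjusted p = 0.00614 by edgeR). All 4 W-hybrid values were above both Z-hybrid ones, each of which is 1 library. By Smart-seq, where steadiness was required, terb1 ranged over 52.9 to 89.9 TPM in the 14 germ cell libraries of both hybrids. For ccdc36 (ENSDARG00000097704), named IHO1 in mouse, where it acts with MEI4 in forming DNA breaks, the values were 70.5 and 113 TPM in W-hybrid against 13.01 TPM in Z-hybrid cells at 14 dpf (log2 fold change 2.57 ± 0.56, adjusted p = 0.0138 by edgeR). At 12 dpf, it had 36.5 and 71.0 TPM in W-hybrid cells and 0 counts in the Z-hybrid library. Against a floor of 3 counts in that library, the W-hybrid mean was at least 129.7-fold higher, and replicate 1 alone at least 89.2-fold. By Smart-seq, where steadiness was required, ccdc36 ranged over 25.4 to 54.2 TPM in 4 W-hybrid libraries of that age. It ranged over 47.2 to 75.7 TPM in 4 Z-hybrid libraries.

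The third gene of DNA break formation, ankrd31, had 107 and 160 TPM in W-hybrid against 47.3 TPM in Z-hybrid cells at 14 dpf (adjusted p = 0.0515 by edgeR), and 99.5 and 128 TPM against 24.9 TPM at 12 dpf (log2 fold change 2.36 ± 0.41, adjusted p = 0.00187 by edgeR). MEI4 had 73.2 and 84.8 TPM in W-hybrid against 57.1 TPM in Z-hybrid cells at 14 dpf (0.23 ± 0.41), and 49.9 and 92.8 TPM against 77.1 TPM at 12 dpf (0.06 ± 0.41), so the groups overlapped at 12 dpf. The other members were below the threshold. They were MAJIN, a partner of TERB1 at telomeres in mouse, HSF2BP, which acts with BRCA2 in mouse recombination, rnf212, which acts at crossovers, and topaz1, a germ cell gene needed in mouse male meiosis. The genes of this group were not tested against each other.

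**Figure D4:**
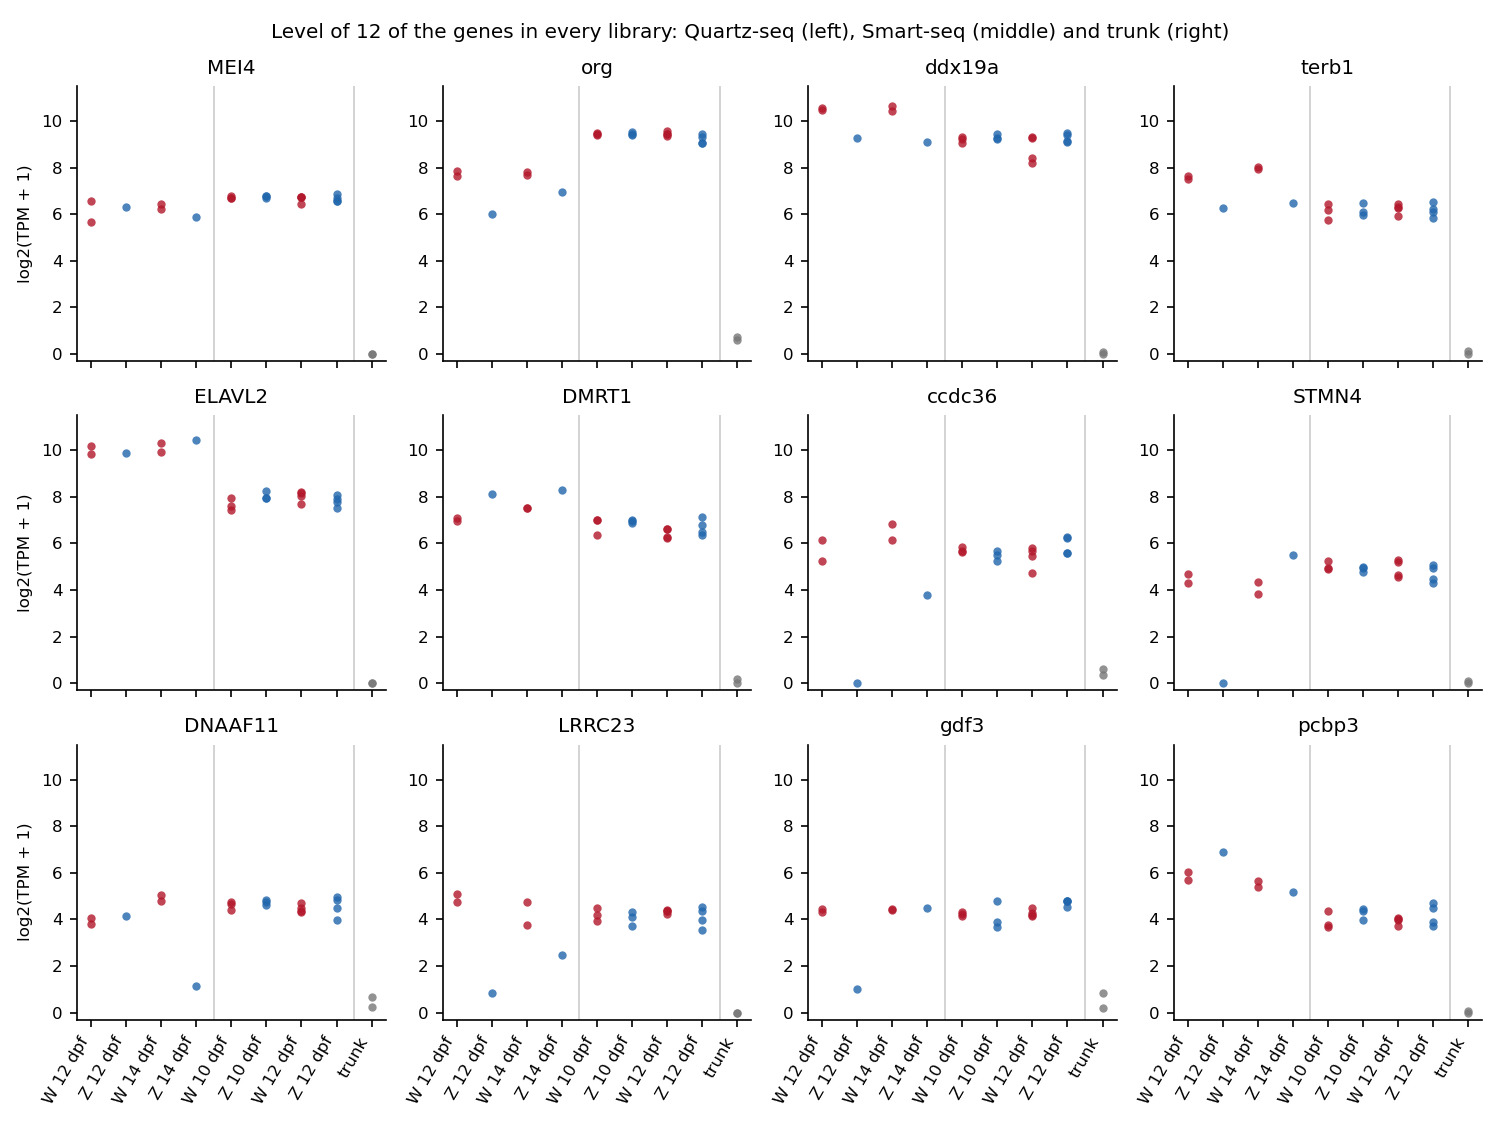
Level of 12 of the genes in every library, in log2(TPM + 1), with Quartz-seq groups on the left, Smart-seq groups in the middle and trunk on the right. Each point is a library, in red for the W-hybrid, blue for the Z-hybrid and grey for trunk. The Smart-seq points of each gene form a narrow band because a small SD was required there. In the 12-dpf Z-hybrid Quartz-seq library, ccdc36 and STMN4 reach 0.

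Of 7 genes known from the egg and early embryo, none was called at 14 dpf and 4 were called higher in W-hybrid cells at 12 dpf. The gene org had 201 and 230 TPM in W-hybrid against 63.8 TPM in Z-hybrid cells at 12 dpf (log2 fold change 1.92 ± 0.37, adjusted p = 0.00352 by edgeR), and 207 and 224 against 123 TPM at 14 dpf (0.56 ± 0.34). The neighbouring genes zp3d.1 and zp3d.2, for proteins of the egg coat, had 65.8 and 57.6 TPM against 28.6 TPM, and 21.5 and 24.8 TPM against 7.47 TPM, in W- and Z-hybrid cells at 12 dpf. The calls were lost without W-hybrid replicate 1 for zp3d.1 (adjusted p = 0.0655 by edgeR) and without replicate 2 for zp3d.2 (0.0638). The maternal signal gdf3 had 18.8 and 20.7 TPM in W-hybrid cells against 1.04 TPM in Z-hybrid cells at 12 dpf (adjusted p = 0.00238 by edgeR), but 20.3 and 21.1 against 21.2 TPM at 14 dpf. By Smart-seq, where steadiness was required, gdf3 had 26.7, 26.6, 26.8 and 21.9 TPM in the 4 Z-hybrid libraries of 12 dpf. Among the Quartz-seq values of gdf3 alone, the 1.04 TPM of the 12-dpf Z-hybrid library was the lowest. For ndr1, a Nodal ligand that works with gdf3 in the embryo, the values were 43.5 and 55.7 TPM against 33.1 TPM at 14 dpf, and 45.1 and 29.3 against 52.1 TPM at 12 dpf.

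The oocyte growth factor bmp15, which zebrafish females need to stay female, had 15 and 12.9 TPM in W-hybrid against 18.1 TPM in Z-hybrid cells at 14 dpf, and 17.5 and 18.2 against 25.7 TPM at 12 dpf. It passed no test (log2 fold change −0.63 ± 0.47 at 14 dpf). The nucleoplasmin gene npm2b had 37.6 and 48.4 TPM in W-hybrid and 8.41 TPM in Z-hybrid cells at 14 dpf, and 8.66 and 10.6 against 6.93 TPM at 12 dpf. Its difference of 14 minus 12 dpf in W-hybrid cells, 2.01 on the log2 scale, was the greatest rise among the 200 genes and was not past the threshold (adjusted p = 0.847 by edgeR). On the list of oocyte and maternal genes, with 5 of the 200, 5 of the 25 genes tested were called higher and 1 lower at 14 dpf, and 7 higher and 2 lower at 12 dpf.

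DMRT1 (ENSDARG00000007349), the transcription factor of male development in many vertebrates, was the 1 gene of the 200 called lower in W-hybrid cells at both ages. It had 181 and 184 TPM in W-hybrid against 317 TPM in Z-hybrid cells at 14 dpf (log2 fold change −1.04 ± 0.29, adjusted p = 0.0384 by edgeR), and 135 and 123 TPM against 280 TPM at 12 dpf (−0.95 ± 0.29, adjusted p = 0.0320 by edgeR). All 4 W-hybrid values lay below both Z-hybrid ones. Without W-hybrid replicate 1 or 2 of 12 dpf, its adjusted p by edgeR was 0.0573 or 0.0536 at 14 dpf and 0.0914 or 0.183 at 12 dpf, and with library size alone it was 0.0970 at 14 dpf. By Smart-seq at 12 dpf, where steadiness was required, DMRT1 had 96.8, 74.3, 76.4 and 97.2 TPM in W-hybrid cells. In Z-hybrid cells it had 111, 80.9, 89.6 and 142 TPM, so the groups overlapped. In trunk, it had 0.13 and 0 TPM. The other markers of gonadal somatic cells, given above, summed to 26.9 to 45.6 TPM over the 6 Quartz-seq libraries, with the Z-hybrid value above both W-hybrid ones at 14 dpf and below both at 12 dpf. Of the 27 genes on the list of germ line transcription and chromatin regulators, 5 were called lower and 0 higher at 14 dpf, and 4 lower and 3 higher at 12 dpf.

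Of 11 genes for transcription and chromatin, DMRT1 among them, 2 were called higher at 14 dpf and 4 at 12 dpf. GTF3A (ENSDARG00000071583), a copy of the 5S RNA transcription factor, had 21.3 and 18.2 TPM in W-hybrid against 1.34 TPM in Z-hybrid cells at 14 dpf (log2 fold change 3.63 ± 0.81, adjusted p = 0.0149 by edgeR), and 16.9 and 18.1 against 0.32 TPM at 12 dpf. The histone gene H2BK1 had 24.7 and 30.1 TPM in W-hybrid against 2.24 TPM in Z-hybrid cells at 14 dpf (adjusted p = 0.0464 by edgeR, and 0.0639 without W-hybrid replicate 2 of 14 dpf), but 15.6 and 27.5 against 29.9 TPM at 12 dpf. TBPL2, the TATA-binding protein of oocytes in mouse, had 83.0 and 75.1 TPM in W-hybrid against 28.1 TPM in Z-hybrid cells at 12 dpf (log2 fold change 1.66 ± 0.40, adjusted p = 0.0103 by edgeR). SNAPC1, for a factor that starts transcription of small nuclear RNAs, had 154 and 228 against 32.2 TPM at 12 dpf (2.72 ± 0.41, adjusted p = 9.02e-04 by edgeR), and 162 and 198 against 116 TPM at 14 dpf. The values of nanog, a maternal activator of the zebrafish embryonic genome, were 104 and 69.0 TPM in W-hybrid against 93.2 TPM in Z-hybrid cells at 14 dpf, and 63.1 and 66.9 against 76.6 TPM at 12 dpf. GSC, the embryonic organizer gene, had 28.7 and 18.3 against 5.50 TPM at 14 dpf and passed no test (adjusted p = 0.114 by edgeR).

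Unlike the genes above, 9 of the 200 are known from cilia and the sperm tail, at 15.4 to 27.4 TPM at the median of Smart-seq. Of these, 3 were called higher in W-hybrid cells at 14 dpf and 4 others at 12 dpf, and none lower. Over the 200 genes, 11% and 37% were called higher at these ages. DNAAF11 (ENSDARG00000053318), for assembly of dynein arms, had 27.0 and 32.2 TPM in W-hybrid against 1.24 TPM in Z-hybrid cells at 14 dpf (log2 fold change 4.33 ± 0.65, adjusted p = 0.00227 by edgeR), but 15.7 and 13.1 against 17.0 TPM at 12 dpf. DRC3, of the links between dyneins, had 22.5 and 35.3 against 3.44 TPM at 14 dpf (2.82 ± 0.64, adjusted p = 0.0156 by edgeR) and 15.2 and 29.6 against 24.5 TPM at 12 dpf. TTLL9, for an enzyme that modifies tubulin, had 28.5 and 37.4 against 6.37 TPM at 14 dpf (2.096 ± 0.52, adjusted p = 0.0234 by edgeR). The interaction was past the threshold for DNAAF11 (adjusted p = 0.00530 by edgeR) and DRC3 (0.0396), but not for TTLL9 (0.114). With 1 Z-hybrid library at each age, age and library cannot be told apart in it.

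At 12 dpf, odad1, ODAD4, LRRC23 and ribc2 were called. The docking complex gene odad1 had 45.9 and 61.6 TPM in W-hybrid against 2.41 TPM in Z-hybrid cells at 12 dpf (log2 fold change 4.64 ± 0.65, adjusted p = 6.77e-04 by edgeR), and 27.8 and 67.0 against 20.1 TPM at 14 dpf. ODAD4, of the same complex, had 24.2 and 27.4 against 5.77 TPM at 12 dpf (2.32 ± 0.52, adjusted p = 0.00702 by edgeR), and 36.4 and 56.2 against 17.7 TPM at 14 dpf. LRRC23, for a protein of the radial spokes, had 25.9 and 33.3 TPM in W-hybrid cells at 12 dpf and 2 counts, 0.79 TPM, in the Z-hybrid library. By Smart-seq, where steadiness was required, LRRC23 had 17.9 to 20.3 TPM in W-hybrid and 10.8 to 21.8 TPM in Z-hybrid cells of that age. The interaction was past the threshold for odad1 (adjusted p = 0.00942 by edgeR) and LRRC23 (0.0114), but not for ODAD4 (0.261) or ribc2 (0.250).

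The 12 genes known from nerve and sensory cells had 15.95 to 47.1 TPM at the median of Smart-seq. They include GABRR2, a GABA receptor subunit, parapinopsinb, a photopigment, the neuropeptide genes pnocb and tac3b, and kcnip3b, a calcium sensor of potassium channels. At 14 dpf, unc119c was called higher in W-hybrid cells and STMN4 lower, and at 12 dpf STMN4 was called higher and RGS20 lower. The call of RGS20 was lost without W-hybrid replicate 2 of 12 dpf, where its log2 fold change was −1.75. STMN4, for a stathmin that binds tubulin, had 13.1 and 19.4 TPM in W-hybrid against 44.1 TPM in Z-hybrid cells at 14 dpf (log2 fold change −1.68 ± 0.48, adjusted p = 0.0412 by edgeR, and 0.118 without W-hybrid replicate 1 of 14 dpf). At 12 dpf, STMN4 had 18.9 and 24.9 TPM in W-hybrid cells and 0 counts in the Z-hybrid library. Against the floor of 3 counts, the W-hybrid mean was at least 76.2-fold higher, and replicate 1 alone at least 66.4-fold. By Smart-seq at that age, where steadiness was required, the 4 W-hybrid libraries had 36.1, 22.9, 24.2 and 38.1 TPM. The 4 Z-hybrid libraries had 21.2, 19.1, 32.7 and 29.7 TPM. The values of parapinopsinb were 23.3 and 21.8 TPM in W-hybrid against 41.9 TPM in Z-hybrid cells at 14 dpf, and those of pnocb 23.6 and 20.7 against 17.6 TPM, and neither passed a test.

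Among the genes with the largest falls or rises, ldhbb had 153 and 123 TPM in W-hybrid against 253 TPM in Z-hybrid cells at 14 dpf (log2 fold change −1.14 ± 0.31, adjusted p = 0.0358 by edgeR), and without W-hybrid replicate 2 of 14 dpf the adjusted p was 0.0727. FAIM, for an inhibitor of apoptosis, was at 0.19 and 0.34 TPM in W-hybrid and 10.2 TPM in Z-hybrid cells at 14 dpf. This call was lost with library size alone (adjusted p = 0.0508 by edgeR) and with thinned counts (0.0586). At 12 dpf, FAIM was at 1.34 and 2.41 TPM against 0 and was not called. These values lie near the floor, with a bound of 2.82-fold against 3 counts, or 2.04-fold for replicate 1 alone. TMEM255A had 19.7 and 17.8 TPM against 39.9 TPM at 14 dpf (adjusted p = 0.0489 by edgeR), but 18.3 and 19.5 against 8.84 TPM at 12 dpf. Its call at 14 dpf was lost without W-hybrid replicate 1 or 2 of that age (adjusted p = 0.0577 and 0.136 by edgeR), and that of FAIM without replicate 1 (0.0625). Among the rises, adora3a.1, an adenosine receptor gene, had 14.8 and 29.8 TPM in W-hybrid against 1.17 TPM in Z-hybrid cells at 14 dpf (3.98 ± 0.92, adjusted p = 0.0176 by edgeR) and 11.6 and 19.1 against 15.3 TPM at 12 dpf. The vesicle protein gene vamp2 had 8.92 and 13.4 TPM in W-hybrid cells and 3 counts, 0.29 TPM, in the Z-hybrid library at 14 dpf. Its call was lost with thinned counts (adjusted p = 0.0527 by edgeR). Zebrafish unc119c, related to a carrier of proteins into cilia, had 14.1 and 32.2 against 0.69 TPM at 14 dpf and 6.43 and 17.3 against 12.7 TPM at 12 dpf.

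Further genes had 0 or few counts in the 12-dpf Z-hybrid library and were called higher in W-hybrid cells there. They were cdca9, a gene named for cell division, R3HDML, ENSDARG00000061480 and ttf1.3. The bounds below are against 3 counts in that 1 library and cover counting error only. In W-hybrid cells, cdca9 had 18.7 and 32.8 TPM (at least 41.7-fold higher by the mean, 30.4-fold by replicate 1 alone). R3HDML had 24.1 and 16.8 TPM (at least 44.8-fold, or 37.2-fold by replicate 2 alone). ENSDARG00000061480 had 1.64 and 15.2 TPM (at least 33.8-fold, or 6.68-fold by replicate 1 alone), and ttf1.3 had 10.5 and 26.4 TPM against 0.1 TPM. At 14 dpf, cdca9 had 37.6 and 36.8 TPM in W-hybrid against 9.75 TPM in Z-hybrid cells (adjusted p = 0.127 by edgeR) and R3HDML 34.7 and 51.2 against 6.38 TPM (adjusted p = 0.0393 by edgeR, and 0.114 without W-hybrid replicate 2 of 14 dpf). Of the highest-ranked genes, ENSDARG00000102218 was called at both ages, with 50.8 and 88.5 TPM against 7.30 TPM at 14 dpf (2.99 ± 0.63, adjusted p = 0.0118 by edgeR) and 49.7 and 74.5 against 3.43 TPM at 12 dpf (4.33 ± 0.72, adjusted p = 0.00150 by edgeR). ENSDARG00000105573, the gene with the highest level in Smart-seq, had 10.6 and 14.2 TPM in W-hybrid against 5.47 TPM in Z-hybrid cells at 14 dpf and was not called.

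Zebrafish keep many gene pairs from an ancient doubling of the genome. Partners of the 200 genes were sought by name alone, as other genes with the same symbol or, as with a and b, its counterpart, and their sequences were not compared. Such a partner was found for 38 of the 150 genes whose symbol holds no colon (25.3%), against 16.3% of the steady genes also seen in trunk, 21.8% of the variable germline-restricted genes and 33.4% of all genes. Of the 38 partners, 23 had 1 TPM or more in both trunk libraries. Since the authors' counting shares reads between similar transcripts, the split within a pair is uncertain.

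The pairs fell into several patterns. In the pair of ddx19a and DDX19A (ENSDARG00000005699), the member had 606 TPM at the median of germ cells and 0 and 0.05 TPM in trunk, whereas DDX19A had 29.1 TPM in germ cells and 34.5 and 20.9 TPM in trunk. Similarly, nxf1a had 220 TPM in germ cells and 0.42 and 0 TPM in trunk, and nxf1b 15.5 TPM in germ cells and 14.0 and 6.46 TPM in trunk. In these pairs the germ cells held mostly the member. For sumo2a (317 TPM in germ cells), the partner sumo2b was higher, with 487 TPM in germ cells and 258 and 367 TPM in trunk. HSPA8 (ENSDARG00000037403), for a heat shock cognate chaperone, had 254 TPM in germ cells and 0.37 and 0.03 TPM in trunk, and its partner (ENSDARG00000068992) 1064 TPM in germ cells and 3023 and 1940 TPM in trunk. POLR2E, for a subunit of RNA polymerases, was at 18.8 TPM in germ cells, against 193 TPM for its partner (ENSDARG00000026183), which had 148 and 72.2 TPM in trunk.

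The pair of OGN, for a small matrix proteoglycan, was split between the cell types. The member (ENSDARG00000031489) had 50.5 TPM in germ cells and 0.07 and 0.28 TPM in trunk, and its partner (ENSDARG00000044132) 0.41 TPM in germ cells and 703 and 407 TPM in trunk. In 12 cases every partner was also under 1 TPM in both trunk libraries. One of them was EEF1A1, for a translation elongation factor, whose copies had 92.1 TPM (ENSDARG00000069951) and 76.2 TPM (ENSDARG00000039502) in germ cells and at most 0.04 and 0.7 TPM in trunk. Another was npm2b, at 34.6 TPM in germ cells beside npm2a at 58.5 TPM. Among the 137 of the 200 genes that could be placed in the RefSeq gene order, 2 pairs were direct neighbours, ppt2a.1 with ppt2a.2 and zp3d.1 with zp3d.2.

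**Figure D5:**
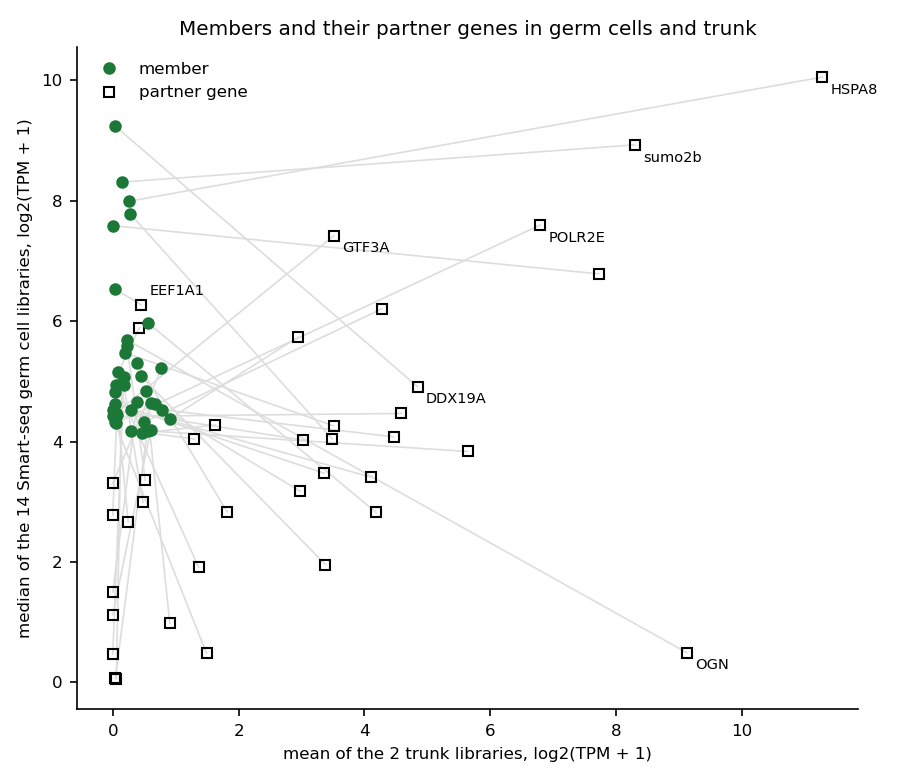
Members of the 200 (green circles) and their partner genes of the same or counterpart name (open squares), with the mean of the 2 trunk libraries on the horizontal axis and the median of the 14 Smart-seq germ cell libraries on the vertical axis, both in log2(TPM + 1). Lines join the 38 pairs. All circles lie at the left because of the limit of 1 TPM in trunk, and the squares spread up to HSPA8 on the right.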

How the data were processed

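The authors mapped reads of 22 libraries to GRCz11 with STAR 2.7.7a and deposited, for each of 32057 genes, the expected count estimated by RSEM 1.3.1, which shares reads of similar transcripts, and the TPM. The gene lengths of the same tables were used for 1 check. Symbols came from a table that pairs Ensembl identifiers with names, and gene order from RefSeq for GRCz12tu, another build, so no coordinates are given. No sequences are shown, since no table of them was used here. Among W-hybrid Quartz-seq libraries, the one without a number is called replicate 1, and no 2 of the 22 libraries had counts that agreed within counting noise. Clone-based names are given by identifier.

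Levels were compared as log2(TPM + 1), a scale on which changes of low genes are understated. Expected counts were rounded, and the 6 Quartz-seq libraries were fitted together in R 4.3.3 with edgeR 4.0.16 (TMM, filterByExpr, robust quasi-likelihood test), and p-values were adjusted over all tested genes after Benjamini and Hochberg. Standard errors are the log2 fold change over the root of the F statistic. A fold against a library at 0 counts is a lower bound for the W-hybrid mean against 3 counts, which covers counting error only. The alternatives were DESeq2 1.42.0, other scalings, filters and limits, thinned counts, a fit of all 20 germ cell libraries and a replicate block. Each W-hybrid Quartz-seq library was also left out in turn. No Z-hybrid library was left out, since each Z-hybrid Quartz-seq group is 1 library.

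The genes named are the 20 with the highest mean, the 5 with the smallest SD, those on 5 hand lists, the 5 called genes with the largest rise or fall in each Quartz-seq comparison, those at the edges of the limits, those under 1 TPM in 2 or more Quartz-seq libraries and the 5 with the largest Quartz-seq SD. Not all are given values. The members and lists were chosen with earlier results of these data known, and the 8 roles and the partner genes after the values were seen.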

Additional observations from a re-analysis of the deposited data

Results flagged for a closer look

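Of 198 groups of 4 Smart-seq libraries that were looked at, 12 had a library set apart from the other 3 by Dixon's ratio. That ratio sets the gap beside a value against the full range, so small differences can be flagged too. The usual chance rate of about 1 in 20 does not apply, since the genes were chosen for a small SD over these same libraries. In the 12-dpf W-hybrid, the median level of the 200 genes was 4.98 on the log2(TPM + 1) scale in replicate 3, against 5.08 to 5.10 in the others. In the same group, replicate 2 was low for ENSDARG00000099586 (127 TPM, against 173 to 178) and MEI4 (86.8 TPM, against 104 to 107). Replicate 3 was low for ZAR1L (23.0 TPM, against 29.7 to 31.0) and RGS7BP (24.3 TPM, against 37.8 to 38.6) and high for tac3b (39.9 TPM, against 36.4 to 36.6). In the 12-dpf Z-hybrid, replicate 1 was high for pm20d1.1 (209 TPM, against 172 to 176) and tdrd15 (80.1 TPM, against 48.9 to 51.5), and replicate 4 was high for HSPA8 (331 TPM, against 182 to 206) and low for gdf3 (21.9 TPM, against 26.6 to 26.8). Replicate 2 was low for SERP2 (9.10 TPM, against 19.4 to 21.5) and replicate 3 for rbm33b (81.6 TPM, against 104 to 107).

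By edgeR's interaction test on the Quartz-seq libraries, the W- over Z-hybrid difference at 14 dpf differed from that at 12 dpf in 42 of the 200 genes, of which 21 are described. It was greater at 14 dpf, on the log2 scale, for unc119c by 4.79 (adjusted p = 0.0278), DNAAF11 by 4.39 (0.00530), adora3a.1 by 3.82 (0.0413), SUV39H1 by 3.497 (0.0371) and DRC3 by 2.79 (0.0396), all by edgeR. It was smaller at 14 dpf for HSPA8 (−1.78, adjusted p = 0.0246 by edgeR), eloal (−1.93), cdk21 (−2.05), SNAPC1 (−2.35), TMEM255A (−3.11), ddx43 (−3.16), odad1 (−3.65) and gdf3 (−4.48). For ttf1.3 (−4.68), LRRC23 (−5.19), R3HDML (−8.90), cdca9 (−9.37), ENSDARG00000061480 (−9.84), ccdc36 (−10.13), FAIM (−12.65) and STMN4 (−13.61), the 12-dpf Z-hybrid library had 3 counts or fewer, so these fitted sizes depend on the prior count. Each Z-hybrid group is 1 library, so age and library cannot be told apart here.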

How the results depend on the processing

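The 22 genes called higher in W-hybrid cells at 14 dpf became 50 in a fit of all 20 germ cell libraries and 11 when only 100 genes were taken. Below, a library left out is always 1 of the 4 W-hybrid Quartz-seq libraries. The dependence on each single Z-hybrid library was thus not tested. The 5 called lower became 0 with library size in place of TMM, 2 with at least 10 counts in every library, 16 in the fit of 20 libraries, 9 with an SD limit of 0.3, 2 with 100 genes, and 3 to 5 with a library left out, 3 being the count without W-hybrid replicate 1 of 14 dpf. At 12 dpf, the 74 called higher became 37 with 100 genes and 62 to 79 with a library left out. The 4 called lower became 7 with DESeq2 or an SD limit of 0.3, 13 in the fit of 20 libraries, 2 with 100 genes, and 2 to 4 with a library left out, 2 being the count without W-hybrid replicate 2 of 12 dpf. In either direction at 12 dpf, 112 of the 200 genes were called in the fit of 20 libraries, and 56 with at least 10 counts in every library. That filter kept 55 of the 78 calls at 12 dpf and 18 of the 27 at 14 dpf. A shorter list gives smaller counts by construction. The fit of 20 libraries takes its spread partly from the Smart-seq libraries, over which a small SD was required, so its larger counts are no independent result. Shares of all genes tested are not given beside these counts, so the counts alone do not tell changes in the 200 genes from changes in all. With at least 10 counts in every library, the median log2 fold change was 0.48 over the 200 genes and 0.03 over all at 14 dpf. At 12 dpf, it was 0.74 and 0.06. With DESeq2, the medians were 0.34 and 0.27 at 14 dpf, and 0.77 and 0.13 at 12 dpf. The causes of these changes were not tested. Of the 27 genes called at 14 dpf, 19 to 25 kept their call with a library left out, and of the 78 at 12 dpf, 62 to 78 did. An SD limit of 0.3 shared 110 of the 200 genes, a trunk limit of 0.5 TPM 145, and a pseudocount of 0.1 190. For 14 against 12 dpf in the W-hybrid, 0 genes were called higher, against 3 in the fit of 20 libraries and 1 with the replicate number as a block, which the labels do not show to pair libraries (r = 0.13 across genes between deviations of same-numbered ones). No paired analysis of the hybrids was possible because each Z-hybrid Quartz-seq group is 1 library. No call of a described gene turned its direction under these alternatives.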
